A study of Mus musculus with 3 samples.

Results

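Fam78a and Pvr are a pair of genes whose transcripts were seen to be lower in naive CD4 T cells with more surface CD5. They were taken by name as 2 of the 14355 genes in the deposited table, and both rows were found. The choice rested on these data: each gene had been seen to fall with CD5 class and with CD5 fluorescence in all 3 plates. The falls over CD5 below are therefore a description and carry no test. Tests of the pair are given only for contrasts other than these falls.

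The cells are naive CD4 T cells of C57BL/6 mice of 8 to 12 weeks, taken fresh from spleen and lymph node, with male and female animals pooled. They were sorted as live single cells with TCRb, CD4 and CD5 among the proteins required on the surface and without CD8, CD25 and CD44, and no genotype or treatment separates them. Each of 697 cells, in 3 plates of 172, 201 and 324, has its CD5 fluorescence at sorting and counts of unique molecular identifiers (UMIs, tags that mark single captured transcripts). The authors' classes hold 174 Low, 349 Middle and 174 High cells, with a median CD5 fluorescence of 16646.5 in Low, 45073 in Middle and 89856 in High cells on the cytometer's scale.

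CD5 is a surface protein that restrains T cell receptor signalling, and its level on a naive cell follows the strength of the tonic signals that the receptor draws from self-ligands. Pvr encodes CD155, an adhesion protein of the immunoglobulin superfamily related to the nectins and named after the human poliovirus receptor. Its binding partners on T cells and NK cells are CD226, which promotes activation, and TIGIT and CD96, which in mice have mostly been described as restraining it. Fam78a belongs to a small gene family of which little is known, so no role is given for it.

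The plates held 1404157 UMIs at most and 726229 at least, and a cell held between 716 and 13486 UMIs with a median of 4244. Among markers of naive CD4 T cells, Cd4 was found in 95.7% of cells, Lef1 in 84.8%, Cd3e in 80.6% and Ccr7 in 66.9%. Markers of other cells were mostly scarce, with Cd8a in 1.0% of cells, Cd8b1 in 4.16%, Cd79a in 1.15% and Foxp3 in 8.03%. The myeloid gene Cst3 was found in 19.9%. Plate 2 stands apart in the summed level of Cd5 mRNA, which should follow the sorted protein. Its log2 ratio of High over Low was 0.12 there, beside 2.72 and 2.75 in plates 1 and 3. Cd5 UMIs were found in 56.4% of High and 41.3% of Low cells of plate 2, so detection did rise there. The difference was wider in plate 1 (63.3% and 22.9%) and plate 3 (51.4% and 13.8%). Values are therefore also given without plate 2. The summed level of the B cell list of 3 genes was 27.06 CPM in High and 63.5 CPM in Low cells of plate 3 and at most 12.1 CPM in every other sum. The pair of regulatory T cell genes had 5.06, 83.5 and 71.0 CPM in High cells of plates 1, 2 and 3, against 0, 35.9 and 46.9 CPM in Low cells. The 2 CD8 genes together had 10.1, 17.4 and 10.1 CPM in High cells, against 9.66, 19.9 and 22.1 CPM in Low cells. The part of these lists in the results below was not tested. Of the well numbers, 40 occur in all 3 plates and 285 in at least 2, and the plate number in each cell's name keeps such cells apart.

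Fam78a lies on chromosome 2 at 32050055 to 32084857 (mm10, minus strand, GENCODE M21) and Pvr on chromosome 7 at 19903578 to 19921160 on the minus strand. A RefSeq start of Fam78a is shown that lies 78 bases from the start of the protein-coding transcript Fam78a-201 in GENCODE M21. Which start the transcripts described below use cannot be told from counts of transcript ends. The window covers chr2:32083656-32083955 on the minus strand of GRCm38.p6. It is read 5′ to 3′ from 250 bases before to 50 after the start in RefSeq, with matches to the GC box in capitals.
Fam78a promoter: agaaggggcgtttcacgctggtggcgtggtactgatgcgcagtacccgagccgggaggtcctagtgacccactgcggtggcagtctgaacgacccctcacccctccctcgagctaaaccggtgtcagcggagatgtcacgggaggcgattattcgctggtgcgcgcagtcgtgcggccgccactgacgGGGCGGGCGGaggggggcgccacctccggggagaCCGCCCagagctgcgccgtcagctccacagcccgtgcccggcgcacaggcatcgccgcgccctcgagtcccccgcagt
Matches to 7 motifs were searched on both strands, namely GGGCGG (GC box), CGGAAG (ETS core), GGAAAA (NFAT), TGANTCA (AP-1), CAGCTG and CACGTG (E-boxes) and TGTGGT (RUNX). The window held 3 matches, all to the GC box, at 62, 58 and 28 bases before the start, of which those at 62 and 58 overlap. A GC box occurs in 35.7% of the 32851 promoter windows of this length that were searched. The window has 70.3% G and C. The other starts of Fam78a in RefSeq and Pvr are not shown.

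Fam78a was a common transcript of these cells, found in 336 of 697 cells (48.2%), with 845 UMIs in all. In High cells it had 157, 219 and 142 CPM (the gene's UMIs over all UMIs of genes, summed over the cells of a class and scaled to the usual CPM unit) in plates 1, 2 and 3, against 391, 335 and 325 CPM in Low cells. All 3 High sums lay below all 3 Low sums. The mean was 173 ± 41.0 CPM in High and 351 ± 35.6 CPM in Low cells (SD, n = 3 plates), and the log2 ratios of High over Low were -1.32, -0.61 and -1.20. Plate 2, in which the summed level of Cd5 mRNA differed little between High and Low, had the smallest fall of Fam78a. The edgeR fit over all genes, with the plate as a block, gave a log2 fold change of -1.0 (SE 0.22), which is 0.50 of the Low level, and -1.23 (SE 0.27) without plate 2. The wells of plate 2 were also given the CD5 value of the well numbered after them. This displacement was picked earlier because Cd5 mRNA then follows CD5 better. Fam78a of plate 2 then had 257 CPM in High and 242 CPM in Low cells (log2 0.09). The fall of Fam78a in all 3 plates thus holds for CD5 values as deposited.

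**Figure D1:**
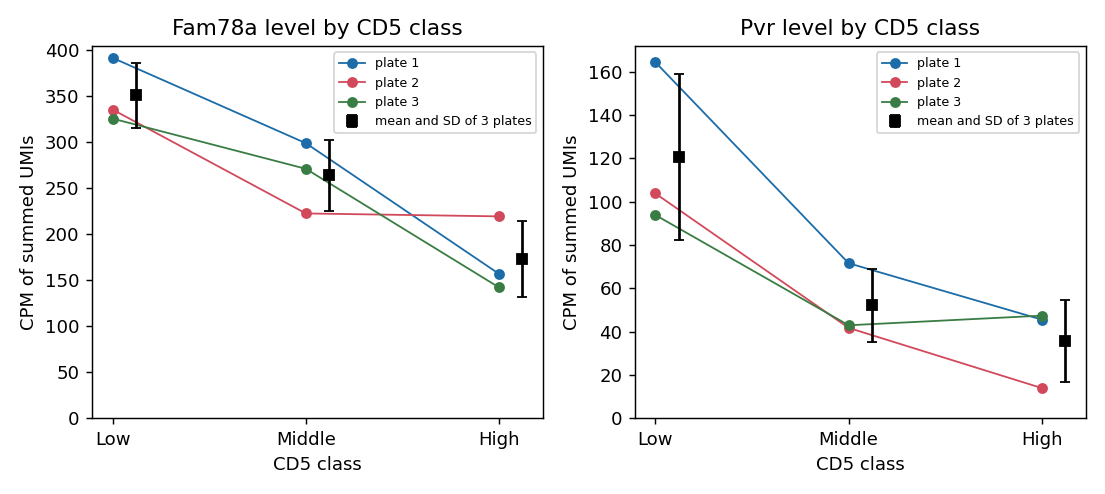
Level of Fam78a (left) and Pvr (right) in CPM of summed UMIs (vertical axis, from 0) by CD5 class (horizontal axis). Coloured points joined by lines are plates and black squares are means with SD over 3 plates: both genes end lower in High than in Low in each plate, while Pvr of plate 3 has 47.3 CPM in High and 42.9 CPM in Middle cells.

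Pvr was a rarer find, with UMIs in 104 cells (14.9%) and 200 UMIs in all. Its High cells had 45.5, 13.9 and 47.3 CPM in plates 1, 2 and 3, against 164, 104 and 93.8 CPM in Low cells. Again no High sum reached the lowest Low sum. The High values rest on 9, 4 and 14 UMIs, against 34, 26 and 34 UMIs in Low cells, so each is known only roughly. The mean was 35.6 ± 18.8 CPM in High and 121 ± 38.2 CPM in Low cells (SD, n = 3 plates), with log2 ratios of -1.85, -2.90 and -0.99. Plate 2 thus had the largest fall of Pvr and the smallest of Fam78a. The edgeR log2 fold change was -1.74 (SE 0.41), or 0.300 of the Low level, and -1.36 (SE 0.46) without plate 2. With plate 2 displaced by a well, Pvr of that plate had 17.2 CPM in High and 33.9 CPM in Low cells, on 4 and 7 UMIs.

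Being lower in every plate is not rare in these data. Of 4813 genes tested, 571 (11.9%) had fewer CPM in High than in Low cells in all 3 plates, and 185 (3.84%) had all High sums below all Low sums. A fall at each step from Low over Middle to High in all 3 plates was seen for 26 genes (0.54%), Fam78a among them and Pvr not. The edgeR fit called 9 genes (0.187%) at an adjusted p of 0.05, of which 8 were higher (0.166%) and 1 lower (0.0208%). The lower one is Fam78a, and as it was picked on this contrast the call is no test of it. The number of genes called lower was 0 by the DESeq2 Wald test, without the plate block, without plate 1, without plate 3 and without the top Kcnq1ot1 cell, so the call was lost in each of these. At an unadjusted p under 0.05 there were 298 genes in both directions (6.19%), and 195 genes (4.05%) had all High sums above all Low sums. Since both genes were picked on this contrast, nothing is read from these counts. By p the lower genes just outside the pair were Apc (log2 -1.73) and Wbp11 (-1.56).

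The steps between classes are given for each gene, and a difference between the genes was not tested. Fam78a in Middle cells had 299, 222 and 271 CPM in plates 1, 2 and 3, a log2 ratio to Low of -0.39, -0.59 and -0.26. The further step of High over Middle was -0.93, -0.02 and -0.93, so in plate 2 the High level was that of the Middle class. Pvr in Middle cells had 71.5, 41.7 and 42.9 CPM, and its Middle over Low ratio was close to the same in each plate at -1.20, -1.31 and -1.13. High over Middle was -0.65, -1.58 and 0.14, spread about more and of opposite sign in plate 3. Whether the Middle class departs from the midpoint of the ends is a contrast other than High minus Low. It is not free of the choice, as it uses the same High and Low sums. The fall over fluorescence, on which the choice also rested, includes the Middle cells. Middle minus the mean of High and Low was 0.11 for Fam78a (SE 0.18, edgeR adjusted p = 0.9996) and -0.33 for Pvr (SE 0.34, edgeR adjusted p = 0.9996), and neither passed. Of 4813 genes 0 passed (0%), with 152 at an unadjusted p under 0.05, and the DESeq2 Wald test called 0, with 53 such genes.

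Over the fluorescence itself, each plate was cut into 4 bins with equal numbers of cells along its CD5 values. From the lowest to the highest bin, Fam78a averaged 339 ± 52.8, 268 ± 72.1, 281 ± 42.6 and 165 ± 33.5 CPM (SD, n = 3 plates). Pvr averaged 121 ± 38.6, 52.8 ± 45.5, 53.3 ± 2.08 and 32.5 ± 15.0 CPM. The means of the middle bins lay close together, but those of single plates did not. From the second to the third bin Fam78a had 265 and 316 CPM in plate 1, 198 and 294 CPM in plate 2, and 342 and 234 CPM in plate 3. Pvr had 104 and 55.4 CPM in plate 1, 16.5 and 53.4 CPM in plate 2, and 38.0 and 51.3 CPM in plate 3. A fall at every step was seen for Pvr in plate 1 and in no plate for Fam78a. The edgeR slope per doubling of CD5 was -0.32 for Fam78a (SE 0.089) and -0.67 for Pvr (SE 0.16). Without plate 2 the slopes were -0.40 (SE 0.11) for Fam78a and -0.58 (SE 0.17) for Pvr. The slopes in plates 1, 2 and 3 were -0.42, -0.15 and -0.46 for Fam78a and -0.83, -0.86 and -0.38 for Pvr. In this fit 0 of 5019 genes (0%) were called lower and 6 (0.12%) higher, with 241 (4.8%) at an unadjusted p under 0.05. The DESeq2 Wald test likewise called 0 lower, with 3 higher.

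Within the Middle class alone the level did not run one way. Fam78a had 336, 270 and 212 CPM in cells above the class's median fluorescence in plates 1, 2 and 3, against 259, 181 and 330 CPM in the cells at or below it. It was thus higher with more CD5 in plates 1 and 2 and lower in plate 3, with log2 ratios of 0.37, 0.57 and -0.64. Pvr had 47.9, 52.5 and 50.9 CPM above the median, against 97.1, 32.4 and 34.9 CPM at or below it, lower in plate 1 alone (log2 ratios -1.02, 0.70 and 0.54). No test was run on these values.

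**Figure D2:**
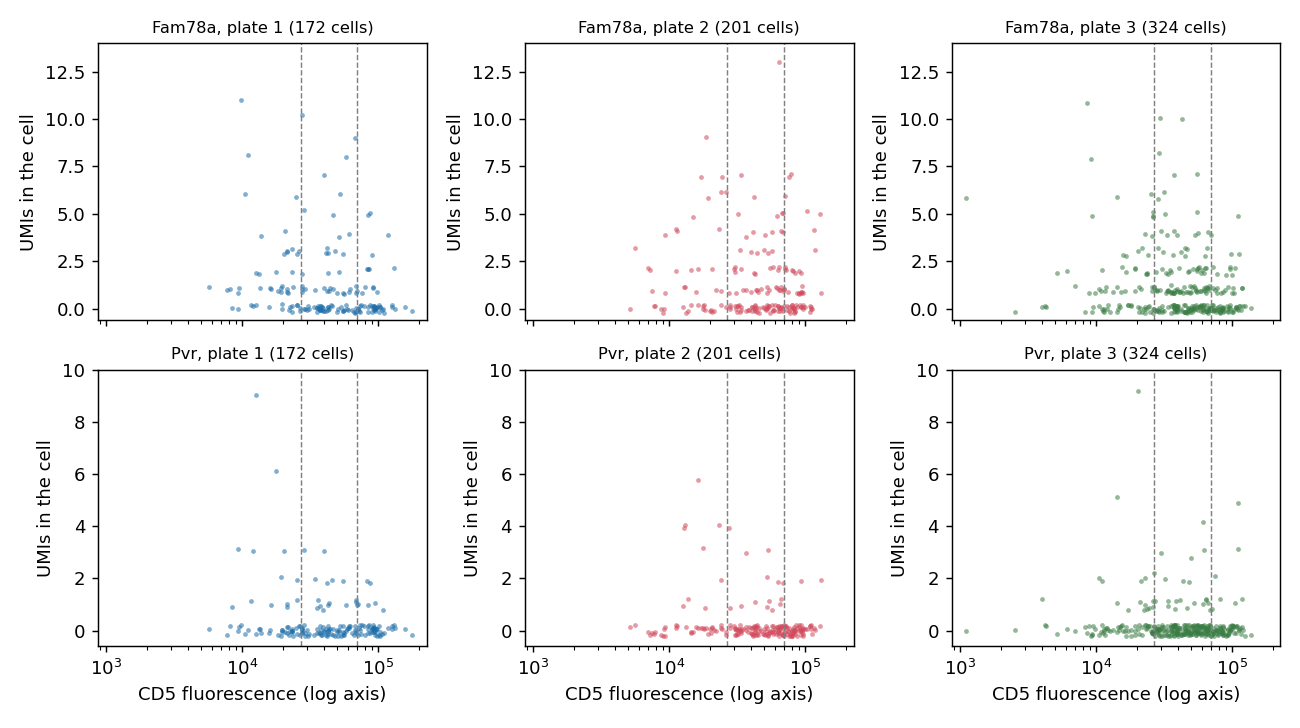
UMIs of Fam78a (upper row) and Pvr (lower row) in each cell (vertical axis, points shifted slightly at random for sight) against CD5 fluorescence (horizontal log axis) in plates 1 to 3. Dashed lines mark the class limits: the cells with most Pvr in each plate, at 9, 6 and 9 UMIs, lie left of the first line.

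Cell by cell the relation was weak. Over the cells of plates 1, 2 and 3 (n = 172, 201 and 324), Spearman's rho of a gene's share of the cell's UMIs with fluorescence was -0.27, -0.05 and -0.16 for Fam78a and -0.16, -0.13 and -0.08 for Pvr. Cells of a plate share library and sequencing, and most hold no Pvr at all, so these values are a description.

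Fewer High cells had any Fam78a UMI, and those that did held fewer of them. Its UMIs were found in 58.0% of Low cells (95% exact binomial interval 50.3 to 65.5), 49.3% of Middle cells (43.9 to 54.7) and 36.2% of High cells (29.1 to 43.8). Per plate the share was 28.6%, 45.5% and 34.3% of High cells, against 66.7%, 54.3% and 55% of Low cells. Among cells with a UMI the mean was 2.21, 2.52 and 1.75 UMIs in High cells, against 2.53, 3.36 and 2.68 UMIs in Low cells. On the log2 scale the ratio of detection averaged -0.72 (SD 0.48, n = 3 plates) and that of UMIs per detecting cell -0.41 (SD 0.21). Cells with at least 5 Fam78a UMIs made up 20 of 174 Low cells (11.5%, 7.16 to 17.2), 23 of 349 Middle cells and 8 of 174 High cells (4.6%, 2.01 to 8.86).

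Pvr was found in 22.4% of Low cells (16.5 to 29.3), 14% of Middle cells (10.6 to 18.1) and 9.20% of High cells (5.35 to 14.5). Per plate it was in 14.3%, 3.64% and 10% of High cells, against 27.1%, 19.6% and 21.2% of Low cells. Detecting High cells held 1.29, 2.0 and 2.0 UMIs on average, against 2.62, 2.89 and 2.0 UMIs in detecting Low cells. In plate 3 the UMIs per detecting cell were thus level, on 7 detecting High and 17 detecting Low cells. Of the 34 UMIs in these Low cells 9 lay in 1 cell, so this mean is known only roughly. The log2 ratio of detection averaged -1.48 (SD 0.83, n = 3 plates) and that of UMIs per detecting cell -0.52 (SD 0.51). At least 3 Pvr UMIs were found in 12 of 174 Low cells (6.90%, 3.61 to 11.7), 9 of 349 Middle cells and 2 of 174 High cells (1.15%, 0.140 to 4.09). This order came from plates 1 and 2, with 5 of 48 and 5 of 46 Low cells against 0 of 49 and 0 of 55 High cells. In plate 3 it was absent, with 2 of 80 Low cells (2.5%) and 2 of 70 High cells (2.86%). The intervals here cover counting error over pooled cells and not the spread between plates.

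**Figure D3:**
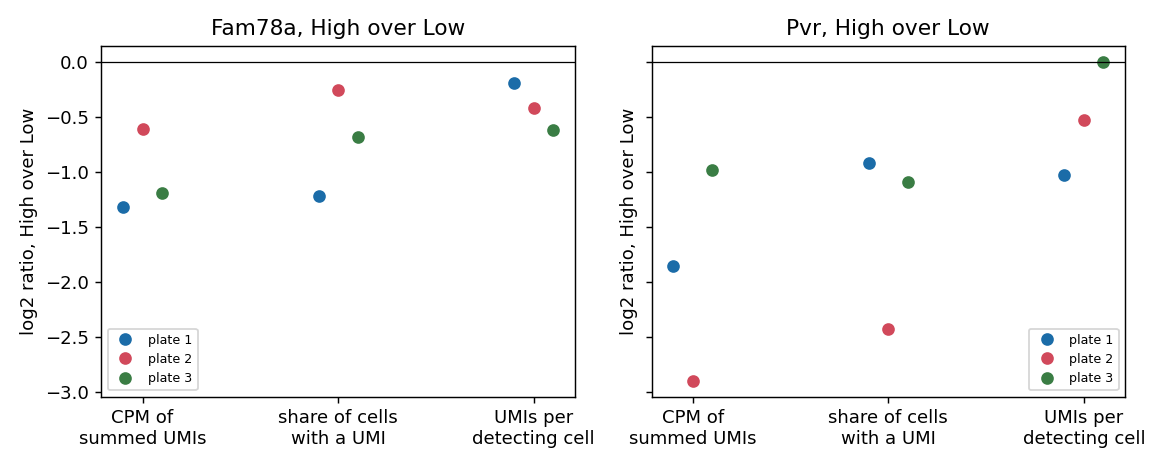
Log2 ratio of High over Low (vertical axis) in each plate (colours) for the CPM of summed UMIs, the share of cells with a UMI and the UMIs per detecting cell (horizontal axis). Points lie below 0 for Fam78a (left) in each column, and for Pvr (right) the last column reaches 0 in plate 3.

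Total UMIs, which bear on detection, differed between the classes. High cells held a median of 2527, 5401 and 3688 UMIs in plates 1, 2 and 3, against 4200, 4987 and 4604 UMIs in Low cells. The median was thus lower in plates 1 and 3 and higher in plate 2. The mean was lower in High cells of each plate, with 4036, 5226 and 4224 UMIs, against 4312, 5449 and 4533 UMIs in Low cells. When cells were thinned at random to 2118 UMIs and shallower cells left out, Fam78a was found in 42.7% of 150 Low cells (34.6 to 51.0), 33.5% of 275 Middle cells and 25.0% of 132 High cells (17.9 to 33.3). Pvr was then found in 12.7% of 150 Low cells (7.80 to 19.1), 9.09% of 275 Middle cells and 6.82% of 132 High cells (3.16 to 12.5). Thinned Pvr in High cells rests on 9 detecting cells. Over pooled cells, which are not replicates, the intervals of High and Low overlap for Pvr and not for Fam78a. Within each plate those of Fam78a overlap too, as in plate 1 with 7.21 to 36.4 in High and 27.8 to 60.4 in Low cells. The order of the 3 classes did not hold in every plate. In plate 2 the thinned share of Fam78a was 41.5% in Low, 27.0% in Middle and 30.4% in High cells. In plate 1 that of Pvr was 15.4% in Low, 20.8% in Middle and 12.5% in High cells. The difference in detection of Pvr, High minus Low, was -13.2 percentage points with all UMIs and -5.85 after thinning.

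**Figure D4:**
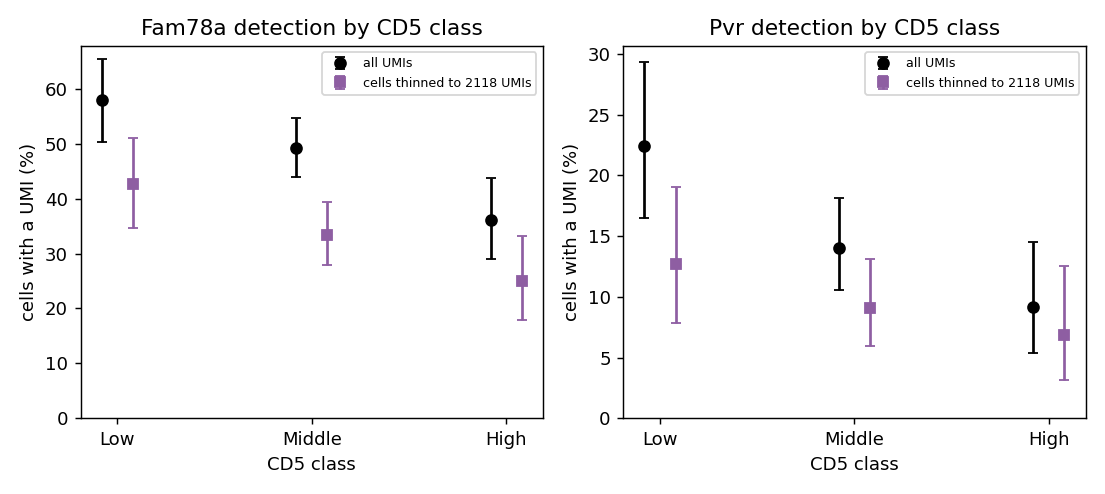
Share of cells with a UMI (vertical axis, percent) by CD5 class (horizontal axis) for Fam78a (left) and Pvr (right), with 95% exact binomial intervals over pooled cells. Black points use all UMIs and purple squares use cells thinned to 2118 UMIs: over pooled cells the share is lower at each step from Low to High in both sets, and for Pvr the thinned intervals of all classes overlap.

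The levels were also lower without scaling to total UMIs, whose mean per cell was itself lower in High than in Low cells of each plate. Mean UMIs of Fam78a per cell were 0.633, 1.15 and 0.600 in High cells of plates 1, 2 and 3, against 1.69, 1.83 and 1.48 UMIs in Low cells. Those of Pvr were 0.184, 0.0727 and 0.20 UMIs in High cells, against 0.709, 0.565 and 0.425 UMIs in Low cells. Scaled to spike-in molecules added to each well, the log2 ratio of High over Low averaged -1.08 (SD 0.39, n = 3 plates) for Fam78a and -1.95 (SD 0.94) for Pvr.

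The class ratio was also taken among cells with a like total. The cells of each plate were split at their median total UMI count, which gave 6 strata. Fam78a had fewer CPM in High than in Low cells in 6 of 6, with log2 ratios from -1.60 to -0.56. Pvr did so in 6 of 6 too, from -3.00 to -0.09. The value of -0.09, in the RNA-poor cells of plate 1, rests on 3 UMIs in High and 2 UMIs in Low cells. The strata are parts of the plates in which both genes were picked as lower, so these counts are largely set by the choice. They are a description, and the share of all genes with such counts was not taken.

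Whether the genes follow a cell's total RNA did not enter the choice, though the fit for it holds no term for CD5. Fam78a had 287, 208 and 256 CPM in RNA-rich cells of plates 1, 2 and 3, those above the plate's median total, against 285, 348 and 262 CPM in RNA-poor cells. It was lower in the RNA-rich cells of plate 2 and close to level in the others. Pvr had 108, 41.2 and 49.1 CPM in RNA-rich cells, against 39.1, 67.0 and 77.8 CPM in RNA-poor cells, higher in plate 1 and lower in plates 2 and 3. Median CD5 was lower in RNA-rich cells of each plate, at 39963, 49310.5 and 42604.5, against 48793, 53293 and 45905.5 in RNA-poor cells. The RNA-rich cells of plate 1 held more Low cells, 34.9% against 20.9% of the RNA-poor cells. The part of these CD5 differences in the values of either gene was not tested. The edgeR log2 difference of RNA-rich minus RNA-poor was -0.30 for Fam78a (SE 0.17, edgeR adjusted p = 0.777) and -0.15 for Pvr (SE 0.35, edgeR adjusted p = 0.980), so neither passed. In that fit 25 of 5741 genes (0.435%) passed, 19 of them lower in the RNA-rich cells (0.331%), and 394 (6.86%) had an unadjusted p under 0.05.

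The UMIs of Fam78a were spread over many cells. Its top cell held 13 UMIs, or 1.54% of the total, and 72 cells held 50% of it. That cell lay in the Middle class of plate 2. The top cells of plates 1 and 3 held 11 UMIs each and were Low cells. Without the top cell of each plate, the edgeR log2 fold change of High over Low was -0.91 (SE 0.23).

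Pvr rested on few cells. In each plate the top cell was a Low cell, with 9, 6 and 9 UMIs, which made up 13.6%, 11.1% and 11.3% of the plate's Pvr UMIs. The top cell of plate 3 held its 9 UMIs among 2046 UMIs in all, while that of plate 1 held them among 7361. In all, 25 cells held 50% of the Pvr UMIs. All 4 cells with 6 or more Pvr UMIs were Low cells. Without the top cell of each plate, the log2 fold change was -1.35 (SE 0.43) and the slope per doubling of CD5 -0.51 (SE 0.16), against -0.67 with all cells. Weighting all cells equally gave log2 ratios of High over Low that averaged -2.20 for Pvr (SD 0.73, n = 3) and -0.96 for Fam78a (SD 0.16).

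**Figure D5:**
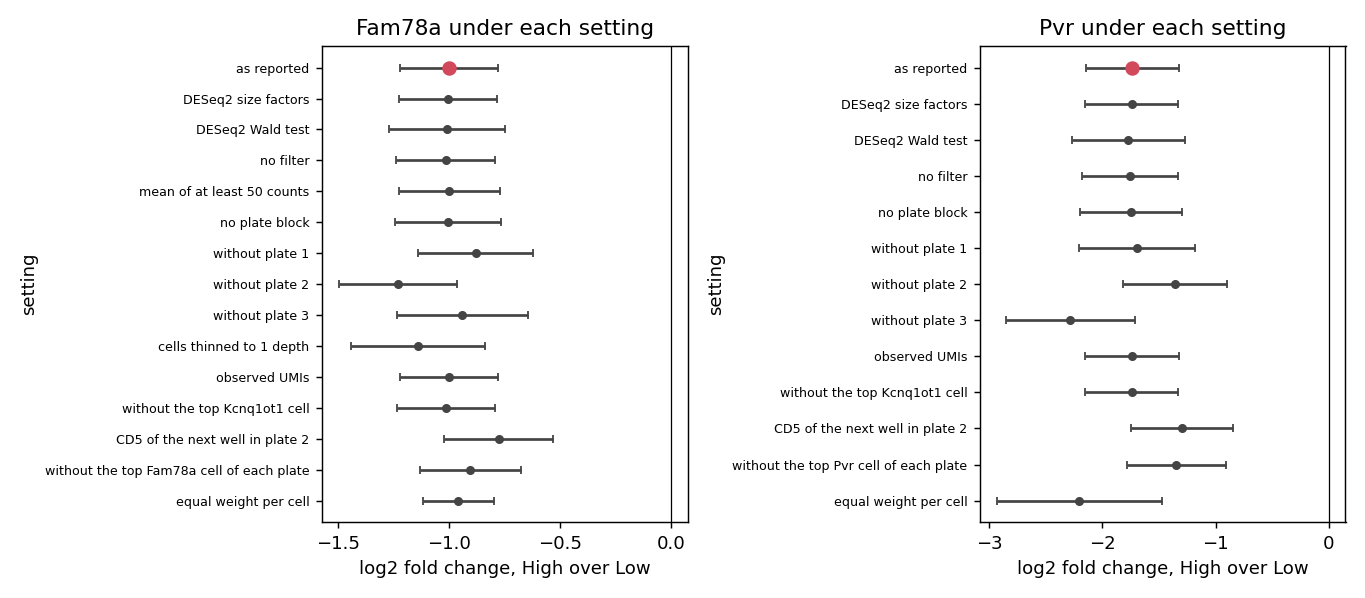
Log2 fold change of High over Low (horizontal axis) for Fam78a (left) and Pvr (right) under each setting (vertical axis). Bars are standard errors of the fit, or the SD over 3 plates for equal weight per cell, and the red point is the value as reported. Values run from -1.23 to -0.78 for Fam78a and from -2.28 to -1.30 for Pvr.

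Detection of the pair in the same cell was close to what independent detection gives. Fam78a was found in 55 of the 104 cells with Pvr (52.9%, 42.8 to 62.8) and in 47.4% of the other cells (43.3 to 51.5). Per plate the share was 62.9%, 40.0% and 52.3% of cells with Pvr, against 42.3%, 50.6% and 47.9% of the others, so plate 2 ran the other way. Cells with Pvr also held more UMIs, with a median of 5064 against 3946. In thinned cells the shares were 39.6% and 33.3%. Of the 55 cells with both transcripts, 50.1 would be found if detection were independent over all cells.

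The partners of CD155 gave no difference that passed. A list of 13 genes was taken: the receptors Cd226, Tigit and Cd96, the nectins, the nectin-like genes Cadm1 to Cadm4, their relative Crtam and the nectin-binding protein afadin. Of these 7 were found in the table and 2, Cd226 and Cd96, had enough counts to be tested. Over all genes 0 of 2 passed in either direction, between classes or over the slope, beside a background of 0.187% and 0.12% of genes. Cd96 had 101, 129 and 112 CPM in High cells of plates 1, 2 and 3, against 91.8, 128 and 105 CPM in Low cells, and its edgeR log2 fold change was 0.08 (SE 0.31, adjusted p = 0.989). Cd226 had 91.1, 55.7 and 47.3 CPM in High cells, against 62.9, 104 and 63.4 CPM in Low cells, with plate 1 running against the others (log2 -0.30, SE 0.42, edgeR adjusted p = 0.979). Cd226 was found in 11.2% of cells, Cd96 in 27.3% and Tigit in 2.15%. Crtam, Cadm1, Cadm2 and Mllt4, the older symbol of afadin, were found in 1.29% of cells or fewer. The list's median log2 fold change over its 2 tested genes was -0.11, and that of all genes tested was 0.004.

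Within 250 kb of Fam78a, 5 other genes were tested, and within 250 kb of Pvr 1. Of these 0 of 6 passed in either contrast, beside 0.187% of all genes between classes and 0.12% over the slope, so the count shows nothing particular to them. Their log2 fold changes ran from -0.40 for Clptm1, near Pvr, to 0.55 for Swi5, near Fam78a. Nup214, a gene of the nuclear pore on the opposite strand whose end overlaps the end of Fam78a by 3921 bases, had -0.01 (SE 0.50). Fam78a also overlaps Gm16534 and Mir7674, and Pvr overlaps an antisense gene, Gm16251, and a pseudogene, Gm16184, none of which is a row of the table. The overlaps of Fam78a fall in the span of its transcript Fam78a-203, outside that of the protein-coding Fam78a-201. The sources used here do not say whether reads were assigned by strand, so reads of overlapping genes may have been counted for the pair. Gm16534 lies on the same strand as Fam78a, so assignment by strand would not keep these apart.

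The likeness of other genes was measured over the 12 CD5 bins, as Pearson's r of log2 CPM with each plate's mean removed. Most like Fam78a among 5018 genes were Bloc1s6, a subunit of a complex that forms lysosome-related organelles (r = 0.94), Trappc8, a part of a vesicle-tethering complex (0.86), Srrm1, a splicing coactivator (0.84), Trim30a, an interferon-induced TRIM protein of mice (0.84), and Mycbp2, a ubiquitin ligase (0.83). Most like Pvr were Zkscan3, a zinc finger protein (0.91), Ddx60, a helicase of antiviral responses (0.89), Ppp6c, a phosphatase subunit (0.89), Spty2d1, a histone chaperone (0.85), and Ccdc174 (0.83). All of them have negative slopes on CD5. The pair correlated with each other at 0.62, where Pvr ranked 131 for Fam78a and Fam78a ranked 145 for Pvr. With Cd5 the r was -0.70 for Fam78a and -0.48 for Pvr. These values come from 12 sums that share plates and CD5 ranks, and the highest values among so many genes tend to overstate the likeness. Both genes were picked for falling with CD5, so their r with each other and with Cd5 partly follows from the choice. The same holds for the negative slopes of the genes most like them. Bloc1s6, Spty2d1 and Ccdc174 had only 31.1, 30.5 and 29.9 CPM over all cells.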

How the data were processed

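Naive CD4 T cells were sorted by the authors into plates with an index of CD5 and their libraries made by SORT-seq, which builds on CEL-Seq2 and counts the ends of polyadenylated transcripts, per the labels' protocols. Reads were mapped with BWA to mm10, per the submitters' processing notes. Its version and the rule for keeping cells are not given in the sources used here. In the authors' deposited gene table are expected counts, UMI counts corrected by the authors for tag collisions and not scaled between cells. CD5 was deposited as a fluorescence signal from the sorter, and the deposited classes are the authors' own.

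Plates served as replicates. The labels do not say that they hold separate animals, so the spread between them may be technical. Expected counts were summed by plate and class (9 sums), by 4 CD5 bins (12 sums) or by total UMIs (6 sums) and rounded to whole numbers. They were fitted with edgeR 4.0.16 in R 4.3.3 (quasi-likelihood, TMM, filterByExpr by group, the plate as a block, two-sided). Benjamini-Hochberg adjustment ran over all genes tested, at 0.05. DESeq2 1.42.0 was an alternative. Python 3.11.15, numpy 2.4.6, pandas 2.3.3, scipy 1.17.1 and matplotlib 3.10.9 were used for the rest. CPM in the text are plain shares of a sum's gene UMIs. Spike-ins (19.6% of counts) were kept out of the fits. Thinning drew 2118 UMIs, the 20% quantile of totals, from 557 cells. Binomial intervals are exact (Clopper-Pearson, 95%). The fits were tested on simulated data with 200 changed genes. These were drawn only from genes with a mean of at least 50 counts per sum, which Pvr does not reach.

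The pair, the lists and the alternatives were chosen with earlier results of these data known. The genes named are the pair, Cd5, the nectin and CD155 list, tested genes within 250 kb and the 5 genes most like each member in the CD5 bins. The motifs, the split by Middle fluorescence and the counts of cells with many UMIs were added after values were seen, and so are Apc and Wbp11 as the next lower genes. A further marker of the naive cells is not reported here.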

Additional observations from a re-analysis of the deposited data

How the results depend on the processing

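The log2 fold change of Fam78a between High and Low kept its sign and stayed within 1 SD of the plates under 14 of 14 alternatives, from -1.23 to -0.78, and that of Pvr under 12 of 12, from -2.28 to -1.30. The slopes did so under 16 of 16 for Fam78a and 14 of 14 for Pvr. The alternatives reuse the plates in which both genes were picked as lower, so these counts are largely set by the choice. They are a description. Between classes that SD was 0.38 for Fam78a and 0.96 for Pvr, so the bound is wide for Pvr. Leaving out each plate gave -1.23 to -0.88 for Fam78a and -2.28 to -1.36 for Pvr between classes, and -0.40 to -0.27 and -0.83 to -0.58 for the slopes. Pvr had too few counts for a mean of at least 50 and for the fit on thinned cells, so those alternatives gave no value for it.

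Counts of genes called moved more. Between classes the count was 9, against 16 without a filter, 24 with plate 2 displaced by a well, 1 without the top Kcnq1ot1 cell and 0 without the replicate block. DESeq2's Wald test also called 0. At an unadjusted p under 0.05 there were 196 genes without the block and 147 by DESeq2. Over the slope it was 6, against 10, 16, 1, 0 and 3 under the same alternatives in that order, where 178 genes had an unadjusted p under 0.05 in the fit without the block. Leaving out each plate gave 0 to 20 between classes and 0 to 14 over the slope, with the higher count without plate 2. For the Middle class the count was 0, against 1 without a filter, and 0 to 1 with each plate left out. Between RNA-rich and RNA-poor cells it was 25, against 6 by the DESeq2 Wald test, 0 without the block (228) and 0 to 18 with each plate left out, where 0 was found without plate 2. The causes were not tested. The log2 difference of Pvr between RNA-rich and RNA-poor cells ran from -0.70 without plate 1 to 0.22 without plate 3, so its sign turned without plate 2 (0.11) and without plate 3, and it passed in no alternative. Leaving out each plate gave -0.020 to 0.33 for Fam78a in the Middle contrast, negative without plate 3, and it passed in none. At 9, 4 and 14 Pvr UMIs in the High sums, counting error limits every Pvr ratio.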

Other observations

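In plate 2, an earlier look at these data had found that Cd5 mRNA follows CD5 fluorescence better when each well is given the value of the well numbered after it. With that value, 46 cells of plate 2 fell in the High and 40 in the Low class, and the log2 ratio of Cd5 was 1.04, against 0.12 as deposited. The log2 ratio of Fam78a was then 0.09, with 257 CPM in High and 242 CPM in Low cells, against -0.61 as deposited. That of Pvr was -0.98, on 4 UMIs in High and 7 UMIs in Low cells, against -2.90 as deposited. Under this displacement Fam78a was thus lower with CD5 in 2 of 3 plates, and the fits over all plates gave -0.78 (SE 0.25) for Fam78a and -1.30 (SE 0.45) for Pvr. The displacement was picked for Cd5 on these same cells, and which assignment of CD5 values to wells is right was not tested.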
